A study of Sus scrofa with 24 samples.

Results

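The genes described here belong to the circadian clock, and were followed in cells of the pig meniscus that were stretched, treated with the inflammatory cytokine IL-1, or both. They are a list of 10 named genes: PER1, PER2, PER3, CRY1, CRY2, NR1D1, NR1D2, CLOCK, DBP and TEF. This list and the further gene lists below were chosen with earlier results of these data known. Their counts and medians beside those of all tested genes are therefore a description only. A listed gene was taken where its symbol stood in the table of read counts and at least 1 library held 10 or more of its reads. That gave 9 of the 10 genes, out of 25880 genes in the table and 13653 that were tested. NR1D2 carries no symbol in the count table, but its identifier, ENSSSCG00000027017, is paired with that symbol in the reference gene names of the pig. Its values are given beside those of the others and it is left out of all counts of the 9 genes.

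The cells were taken from medial menisci, the fibrous cartilage pads on the inner side of the knee, of skeletally mature female pigs. Inner zone cells came from its inner part, which lacks vessels in the adult, and outer zone cells from the remainder. Cells of at least 3 menisci were pooled, expanded for a passage in serum and seeded at 250000 per well on collagen-coated flexible membranes. About 40 h later all wells received fresh culture medium. The 8 groups were inner or outer zone cells given no further treatment (control), a single bout of 5% cyclic stretch at 0.5 Hz (stretch), 0.1 ng/mL of porcine IL-1α (IL-1), or both together (stretch + IL-1), with 3 wells, and so 3 libraries, in each. RNA was taken from all wells directly after the bout, at 1 time point.

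Several features of this design bear on every value below. The wells of a zone were seeded from pooled cells, so p-values measure the spread between wells and not between animals. In the labels each treatment has a plate-like number of its own that both zones share, so whatever differed between those numbers cannot be told apart from the treatment. Clock transcripts also change with the time of day and after fresh medium with serum, and all 8 groups had their medium changed. With 1 time point, a change in the level of a clock transcript and a shift in its timing cannot be told apart. In these bulk samples fewer cells of a type and less RNA per cell cannot be told apart either.

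The circadian clock is a loop of transcription that runs in nearly every cell. CLOCK pairs with the protein of ARNTL (BMAL1) and binds E-box sequences, and so switches on the PER and CRY genes, whose proteins return to the nucleus and block that pair. In a further loop the nuclear receptors NR1D1 and NR1D2 (REV-ERBα and REV-ERBβ) repress ARNTL and other genes through ROR elements, while DBP and TEF, related PAR bZIP factors, activate genes with D-boxes. Cartilage and other joint tissues hold such clocks, and inflammatory cytokines and mechanical load are known to affect clock genes in cells of cartilage.

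The sequence before the start of these genes shows which of those elements lie there. The sequences are those of the Sscrofa11.1 assembly, read from the 250 bases upstream of the outermost messenger RNA start that RefSeq annotates for each gene, and are written 5′ to 3′ on the strand of the gene. The windows of PER1 and NR1D1, which fell with stretch, and of CRY1 and CRY2, which rose, are shown for comparison, and that of PER3 because it held both an E-box and D-boxes. Capitals mark every match to the E-box (CACGTG), an E-box variant (CACGTT), the D-box (TTATGTAA or TTACGTAA), the ROR element or the cAMP response element (TGACGTCA), each searched on both strands. The windows lie at chr12:53376724-53376973 (PER1, minus strand), chr12:22263299-22263548 (NR1D1, plus strand), chr5:13275015-13275264 (CRY1, plus strand), chr2:16620381-16620630 (CRY2, minus strand) and chr6:68487384-68487633 (PER3, plus strand).
PER1: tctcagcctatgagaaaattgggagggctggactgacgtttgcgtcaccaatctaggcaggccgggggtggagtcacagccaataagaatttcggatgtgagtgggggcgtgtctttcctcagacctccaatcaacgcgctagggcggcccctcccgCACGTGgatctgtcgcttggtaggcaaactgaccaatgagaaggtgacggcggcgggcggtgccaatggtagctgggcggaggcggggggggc
NR1D1: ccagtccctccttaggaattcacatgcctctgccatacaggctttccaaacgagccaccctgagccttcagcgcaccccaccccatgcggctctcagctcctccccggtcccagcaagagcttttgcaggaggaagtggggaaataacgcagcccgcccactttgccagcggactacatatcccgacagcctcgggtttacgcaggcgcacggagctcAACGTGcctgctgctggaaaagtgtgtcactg
CRY1: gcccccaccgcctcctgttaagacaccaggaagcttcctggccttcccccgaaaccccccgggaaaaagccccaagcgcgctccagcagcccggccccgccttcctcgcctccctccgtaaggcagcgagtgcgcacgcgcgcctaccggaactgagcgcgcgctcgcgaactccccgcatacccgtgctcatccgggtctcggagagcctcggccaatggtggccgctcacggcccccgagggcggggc
CRY2: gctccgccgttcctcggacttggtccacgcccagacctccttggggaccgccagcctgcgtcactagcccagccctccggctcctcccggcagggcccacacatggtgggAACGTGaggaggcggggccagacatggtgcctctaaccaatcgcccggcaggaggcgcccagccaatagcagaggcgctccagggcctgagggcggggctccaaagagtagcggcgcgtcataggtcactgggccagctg
PER3: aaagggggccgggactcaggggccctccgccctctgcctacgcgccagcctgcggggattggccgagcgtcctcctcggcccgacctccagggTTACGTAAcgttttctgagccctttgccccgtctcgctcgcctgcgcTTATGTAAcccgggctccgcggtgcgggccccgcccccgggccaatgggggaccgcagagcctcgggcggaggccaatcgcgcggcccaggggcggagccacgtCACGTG

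In these windows PER1 held an E-box that began 93 bases before the start. The E-box variant stood 32 bases before the start of NR1D1 and 140 bases before that of CRY2, both on the opposite strand, so that it reads AACGTG above. The CRY1 window held none of the motifs searched. PER3 held an E-box 6 bases before its start and D-boxes at 157 and 110 bases. Of the windows not shown, that of TEF held an E-box at 130 and another at 20 bases and that of DBP a ROR element at 46 bases, while those of PER2, NR1D2 and CLOCK held no match. No match overlapped another. Among 19559 promoters of protein-coding genes, windows of 250 bases with at least 1 match made up 6.4% for the E-box, 4.52% for its variant, 0.859% for the D-box, 0.496% for the ROR element and 1.71% for the cAMP response element. Over 1000 bases those shares were 16.6%, 17.7%, 4.32%, 3.15% and 2.42%. A match describes the letters and does not show binding, and no binding was measured here. Only the outermost start of each gene was searched, while RefSeq lists 5 messages for PER2, 9 for CRY1, 2 for NR1D2 and 18 for CLOCK. Which start these cells used was not tested, so a window without a match does not show that a gene lacks the element.

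**Figure D1:**
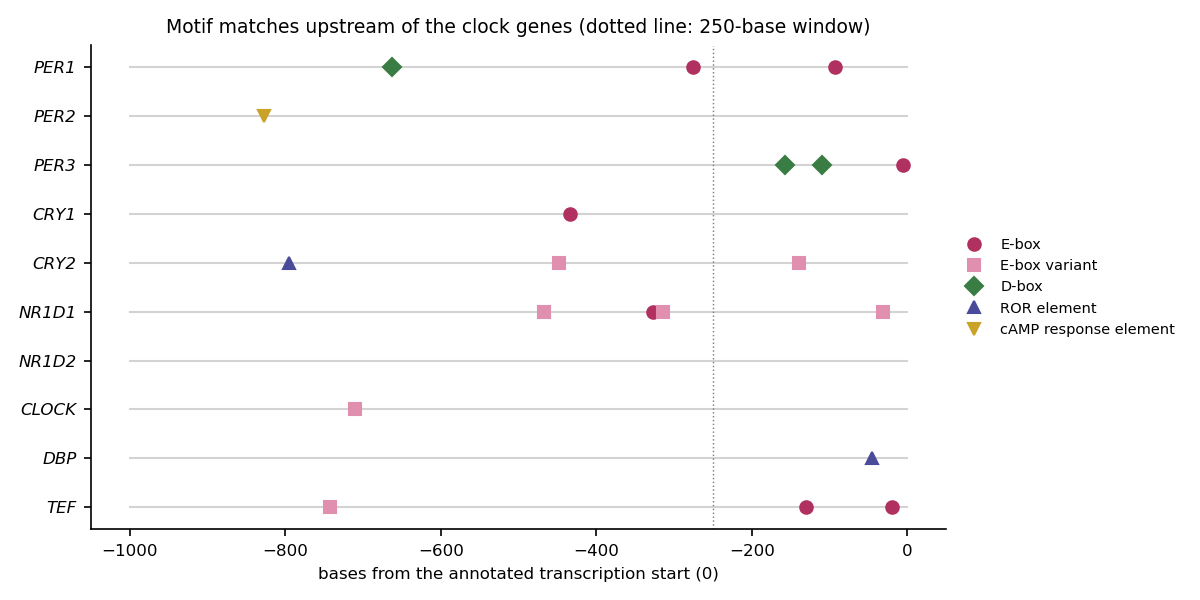
Positions of motif matches in the 1000 bases before the annotated start of each of the 10 clock genes; the horizontal axis is the distance from the start in bases, symbols mark the motif, and the dotted line marks the 250-base window. PER1, PER3 and TEF have E-boxes inside that window, the D-boxes of PER3 lie at 157 and 110 bases, and in NR1D1 the symbols of an E-box at 327 bases and of the variant at 314 bases partly cover each other.

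Library totals ran from 25377054 to 35284474 reads counted in genes. The summed level of 8 fibroblast markers was 90004 to 114060 CPM (counts of a gene per megaread of its library, with library sizes scaled by the TMM method). Of these markers, COL1A1 reached 62615 CPM, COL1A2 31815 CPM, COL3A1 12781 CPM and the next, VIM, 8643 CPM. Of the 6 leukocyte markers, PTPRC and CD3E had at most 1 read in any library, while CD14, which other cells can also express, reached 1228 reads, LYZ 77, CD79A 37 and CD68 17. Of the 5 endothelial markers in the table, CDH5, VWF, KDR and TEK had at most 5 reads and PECAM1 up to 329. Of the 6 mural cell markers, ACTA2 reached 1726 CPM and the next, CNN1, 82.0 CPM. Of the 8 chondrocyte markers, COL11A1 reached 2206 CPM, ACAN 514 CPM and the next, HAPLN1, 80.5 CPM. Sums of these lists therefore rest on few genes.

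All 9 genes passed the filter and were read in every library. Read counts ran from 17 to 48 per library for DBP, the least abundant, from 32 to 280 for NR1D1, and from 1028 to 2357 for CLOCK, the most abundant. Because longer messages give more reads, levels were compared between genes as CPM per kilobase of the longest RefSeq message. In control inner zone cells CLOCK stood at 10.8 CPM per kilobase, NR1D2 at 6.22, CRY1 at 2.99, PER1 at 2.24 and PER3 at 1.87. CRY2 at 1.25, TEF at 1.21, NR1D1 at 1.0, PER2 at 0.829 and DBP at 0.537 CPM per kilobase were lower. These lengths come from another annotation than the one used for counting, so near neighbours in this order should not be ranked. Across the 8 group means the widest range was that of NR1D1, 4.68-fold, and the narrowest that of PER3, 1.32-fold.

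**Figure D2:**
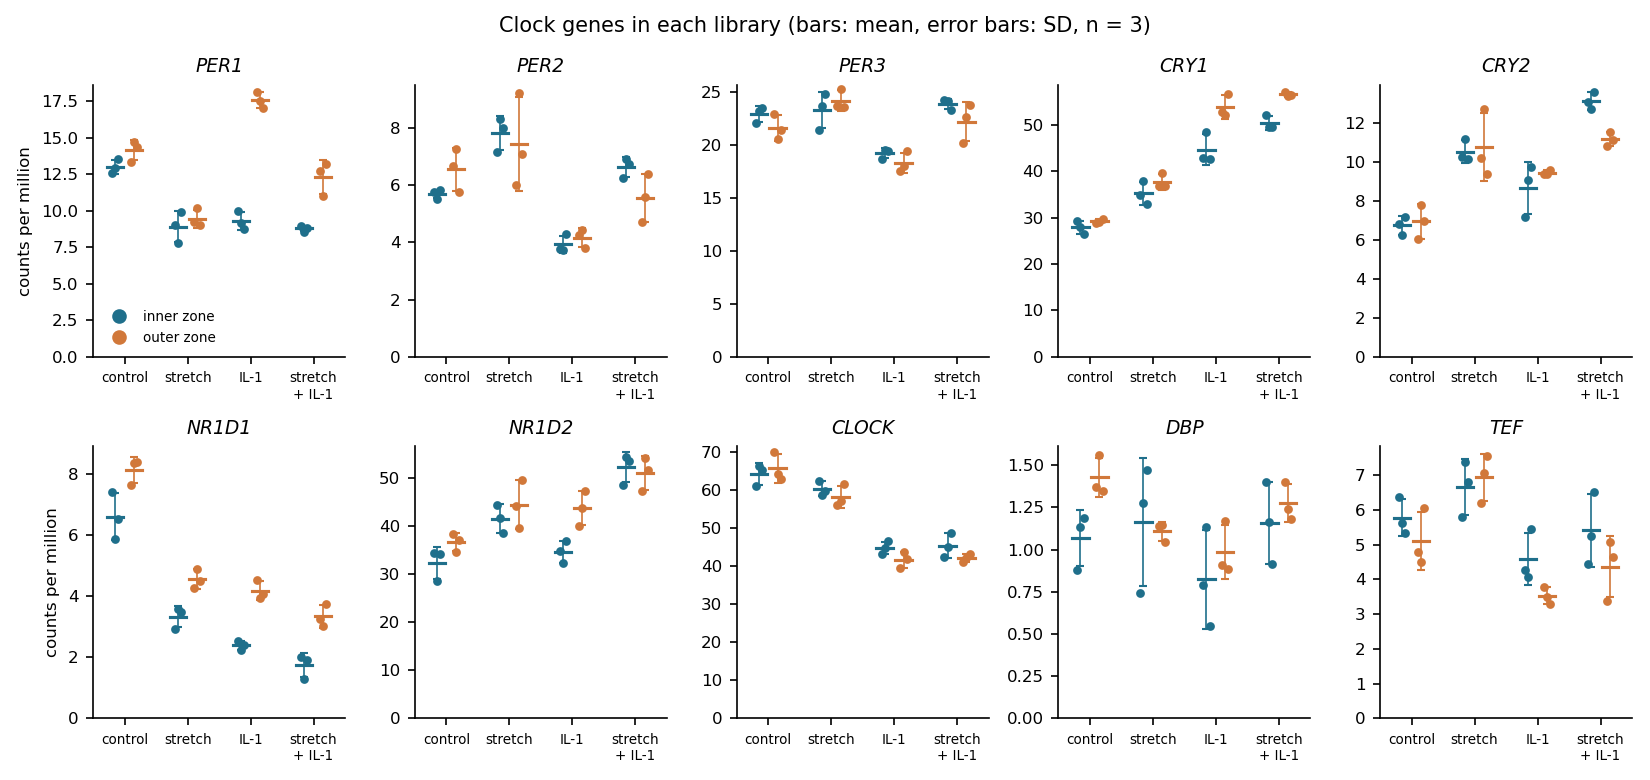
Level of each of the 10 clock genes in CPM (vertical axis, from 0) in the 24 libraries, by treatment (horizontal axis) and zone (colour). Points are libraries, horizontal bars group means and error bars the SD of 3 libraries. NR1D1 is highest in the control wells of both zones, CRY1 is lowest there, and PER1 with IL-1 is at 8.79 to 9.97 CPM in the inner zone and at 17.1 to 18.1 CPM in the outer zone.

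Stretch without IL-1 lowered PER1 and NR1D1 and raised CRY1 and CRY2 in cells of both zones. Of the 9 genes, 3 rose (PER2, CRY1 and CRY2) and 2 fell (PER1 and NR1D1) in inner zone cells, where 10.6% of all tested genes rose and 9.29% fell. In outer zone cells 3 rose (CRY1, CRY2 and TEF) and 3 fell (PER1, NR1D1 and CLOCK), against 11% and 10.3% of all tested genes. Calls rest on an adjusted p under 0.05 at any fold change, and the sizes given as rises or differences are on the log2 scale, ± SE, unless named as a fold. Statements here and below that wells did or did not overlap only describe the wells. The share of all tested genes whose wells did not overlap was not computed, so a lack of overlap is not particular to these genes. The median log2 fold change over the 9 genes was 0.10 in the inner and 0.16 in the outer zone, beside -0.003 and 0.006 over all tested genes. Without regard to sign, the median was 0.34 beside 0.11 over all tested genes (inner) and 0.37 beside 0.12 (outer). No gene of the 9 changed more than 2-fold with stretch.

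Among the repressors of the loop, PER1, a rapidly induced Period gene, was at 12.6, 12.9 and 13.5 CPM in the control and at 9.02, 7.83 and 9.91 CPM in the stretched wells of the inner zone. The control wells of the outer zone held 13.4, 14.7 and 14.4 CPM and the stretched wells 9.21, 10.2 and 9.03 CPM. Every stretched well was below every control well of its zone. The log2 fold change (± SE of the fit, 3 wells a group) was -0.54 ± 0.08 (adjusted p = 3.79e-06) in the inner zone and -0.58 ± 0.08 (adjusted p = 8.21e-07) in the outer zone. PER2, which with PER1 forms the core of the repressing complex, took the other direction in the inner zone, where it rose from 5.75, 5.53 and 5.81 CPM to 7.15, 8.33 and 8.0 CPM, by 0.45 ± 0.12 (adjusted p = 0.0048). Outer wells held 6.66, 7.26 and 5.76 CPM without and 6.01, 9.24 and 7.07 CPM with stretch, and these values overlapped. Its outer difference of 0.19 ± 0.12 did not pass (adjusted p = 0.289, 95% interval -0.05 to 0.42). PER3, the Period gene least needed for rhythms in mice, differed by 0.02 ± 0.06 in the inner zone (95% interval -0.11 to 0.15) and by 0.16 ± 0.06 in the outer zone (adjusted p = 0.0631), where it passed without control replicate 4 (0.20, adjusted p = 0.0396).

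Both cryptochromes, which carry the strongest repression of CLOCK and its partner, rose. CRY1 was at 29.3, 28.1 and 26.5 CPM in control and 34.9, 37.9 and 33.1 CPM in stretched inner zone wells, a log2 fold change of 0.34 ± 0.06 (adjusted p = 2.65e-05). Its outer control wells held 29, 29 and 29.8 CPM and its stretched wells 36.8, 39.7 and 36.8 CPM, a rise of 0.37 ± 0.06 (adjusted p = 5.30e-06). No stretched well overlapped a control well for CRY1. CRY2 rose more in size, from 6.82, 6.24 and 7.18 CPM to 10.2, 11.2 and 10.1 CPM in the inner zone, by 0.64 ± 0.10 (adjusted p = 1.68e-05). The outer wells were at 6.02, 7.81 and 6.99 CPM without and 10.2, 12.7 and 9.37 CPM with stretch, a rise of 0.63 ± 0.10 (adjusted p = 1.90e-05), again with no overlap.

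The paired nuclear receptors moved apart. NR1D1 was at 7.4, 5.87 and 6.53 CPM in control inner zone wells and at 2.94, 3.57 and 3.48 CPM in stretched ones, 1.98-fold lower, with a log2 fold change of -0.99 ± 0.12 (adjusted p = 4.90e-08). Outer wells fell from 7.66, 8.36 and 8.4 CPM to 4.27, 4.91 and 4.49 CPM and were 1.79-fold lower, with a log2 fold change of -0.84 ± 0.11 (adjusted p = 2.35e-07). These were the largest stretch effects among the 10 genes in either zone. NR1D2 was at 34.4, 28.5 and 34.1 CPM in control and 44.4, 41.6 and 38.5 CPM in stretched inner zone wells and rose by 0.36 ± 0.08 (adjusted p = 0.00291). Its outer values were 38.4, 34.6 and 37 CPM without and 44.2, 39.6 and 49.6 CPM with stretch, a rise of 0.28 ± 0.08 (adjusted p = 0.0173) that did not pass without replicate 5 of the control (adjusted p = 0.0872) or replicate 6 of the stretched wells (adjusted p = 0.119), nor without the filter on low counts (adjusted p = 0.0502).

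In RefSeq, NR1D1 overlaps the thyroid hormone receptor gene THRA on the opposite strand by 2985 bases of exon, CRY1 overlaps MTERF2 on its own strand (2397 bases) and TMEM263 on the opposite one (1581 bases), and CLOCK overlaps TMEM165 on the opposite strand (3027 bases). The library kit marks strand, but the strand setting of the counting is not given in the sources used here, so reads from the shared bases may not have been assigned to 1 gene. THRA itself was at 50.4 to 51.9 CPM in control and 44.3 to 51.4 CPM in stretched inner zone wells, and differed by -0.12 ± 0.06 (adjusted p = 0.143) there and by -0.03 ± 0.05 (adjusted p = 0.769) in the outer zone.

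CLOCK, the activator, was at 60.9, 66.3 and 65.3 CPM in control and 62.4, 58.8 and 59.8 CPM in stretched inner zone wells, a difference of -0.09 ± 0.05 that did not pass (adjusted p = 0.263). Its outer log2 fold change was -0.17 ± 0.05 (adjusted p = 0.0153), a fall from 70.0, 64.1 and 63 CPM to 56, 57.1 and 61.5 CPM. TEF, the D-box activator, rose in the outer zone from 4.78, 4.49 and 6.06 CPM to 6.2, 7.07 and 7.54 CPM, by 0.44 ± 0.14 (adjusted p = 0.0202), and differed by 0.20 ± 0.14 in the inner zone (adjusted p = 0.344). The outer fall of CLOCK and the outer rise of TEF were each lost without some single wells: adjusted p reached 0.134 for CLOCK (lost without control replicate 4, or stretch replicate 4 or 5) and 0.12 for TEF (lost without control replicate 4 or 5, or stretch replicate 5 or 6). DBP, strongly rhythmic in many tissues, was at 0.877, 1.14 and 1.19 CPM in control and 0.742, 1.27 and 1.47 CPM in stretched inner zone wells, and at 1.37, 1.56 and 1.35 against 1.14, 1.14 and 1.04 CPM in the outer zone. It did not pass in either zone, with 95% intervals of -0.37 to 0.57 (inner) and -0.81 to 0.08 (outer). Marker sums moved with stretch as well: that of 8 chondrocyte markers was 2263 to 2422 CPM in stretched against 2747 to 2886 CPM in control inner zone wells, and 946 to 1088 against 1112 to 1199 CPM in the outer zone. In the inner zone the fibroblast sum, mostly COL1A1, COL1A2 and COL3A1, was 90004 to 101072 against 103662 to 105010 CPM. There the leukocyte sum was 19.1 to 20.2 against 18.3 to 19.0 CPM. The part of these sums in the clock gene values was not tested.

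**Figure D3:**
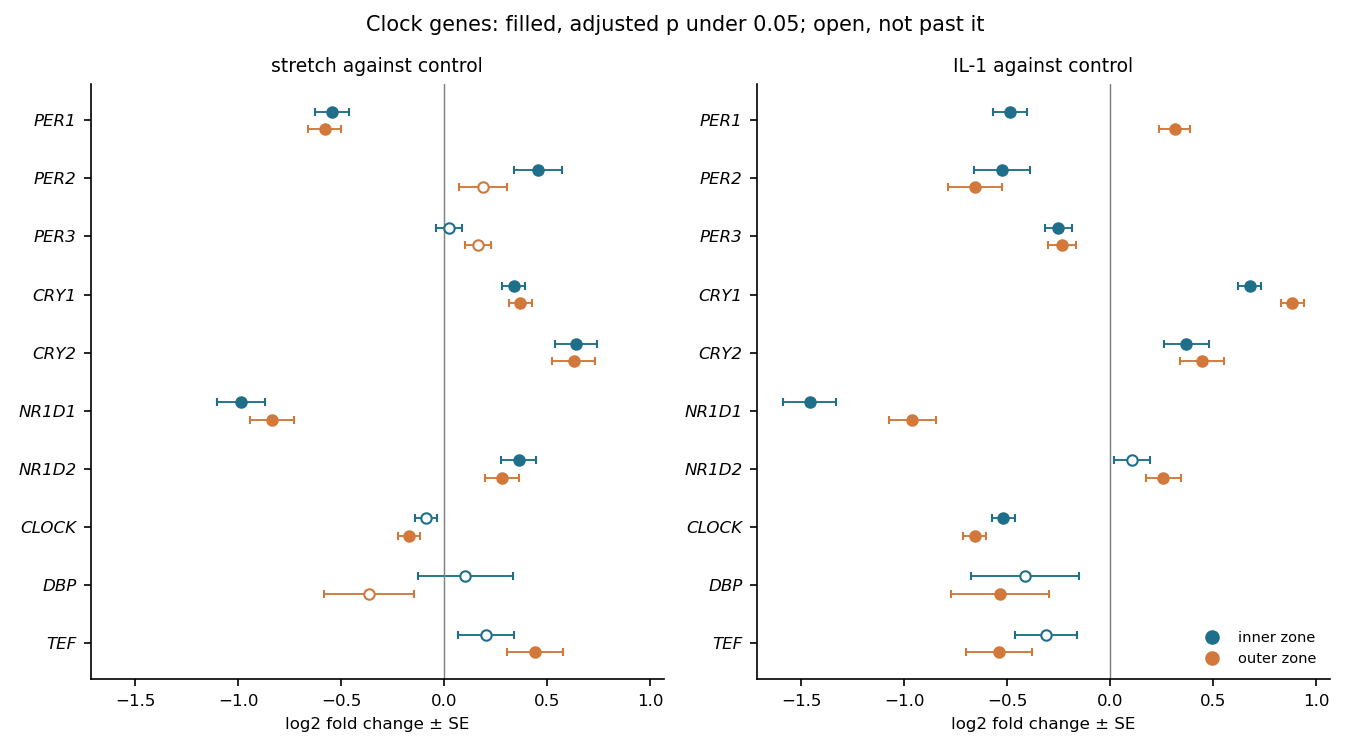
Log2 fold change (horizontal axis, ± SE) of each clock gene with stretch (left) and with IL-1 (right) against the control wells of the same zone, inner and outer zone by colour; filled points passed an adjusted p under 0.05. NR1D1 lies furthest to the left in both panels, CRY1 and CRY2 lie to the right in all cases, and with IL-1 the PER1 points of the zones lie on opposite sides of 0. The panels share their control wells.

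IL-1 without stretch raised CRY1 and CRY2 and lowered PER2, PER3, NR1D1 and CLOCK in both zones, while PER1 fell in inner and rose in outer zone cells. In the inner zone 2 of the 9 genes rose and 5 fell, where 32.6% of all tested genes rose and 32.8% fell. In the outer zone 3 rose and 6 fell, against 31.1% and 33.5% of all tested genes. As about 2 in 3 tested genes passed with IL-1, the number of clock genes called says little by itself, and the sizes are given instead. The median log2 fold change of the 9 genes was -0.42 in the inner and -0.54 in the outer zone, beside -0.03 and -0.04 over all tested genes. In such a median rises and falls cancel. Without regard to sign, the median was 0.49 beside 0.34 over all tested genes (inner) and 0.54 beside 0.35 (outer). Upper-quartile scaling moved the signed median over all tested genes to -0.20 and -0.22. It made the falls of PER3, the smallest among the calls, -0.43 and -0.42 in the inner and outer zone. With that scaling 1 of the 9 genes rose and 7 fell in the inner zone, beside 21.7% and 48.4% of all tested genes, and 2 rose and 6 fell in the outer zone, beside 21.1% and 50.1%.

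CRY1 had the largest rise. Its inner zone wells held 42.9, 48.5 and 42.7 CPM with IL-1, against 26.5 to 29.3 CPM in the control, and rose by 0.68 ± 0.06 (adjusted p = 1.05e-12). The outer zone wells held 52.8, 52.1 and 56.8 CPM, against 29.0 to 29.8 CPM, a rise of 0.88 ± 0.06 (adjusted p = 5.75e-16). CRY2 reached 7.17, 9.08 and 9.76 CPM in the inner zone, where 1 well overlapped the controls, and rose by 0.37 ± 0.11 (adjusted p = 0.00384). That call was lost without IL-1 replicate 3 (0.26, adjusted p = 0.0606) and with upper-quartile scaling (0.19, adjusted p = 0.12). Outer wells held 9.35, 9.39 and 9.6 CPM of CRY2, a rise of 0.44 ± 0.11 (adjusted p = 0.000542).

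PER2 and PER3 fell together. The IL-1 wells held 3.78, 3.74 and 4.28 CPM of PER2 in the inner and 4.24, 4.44 and 3.8 CPM in the outer zone, all below their controls. The log2 fold changes were -0.53 ± 0.14 (adjusted p = 0.00107) and -0.66 ± 0.13 (adjusted p = 5.39e-05). PER3 was at 18.7, 19.6 and 19.4 CPM in inner and 17.6, 18 and 19.4 CPM in outer zone wells with IL-1, with smaller log2 fold changes of -0.25 ± 0.07 (adjusted p = 0.000994) and -0.24 ± 0.07 (adjusted p = 0.00229). Neither gene overlapped its controls in either zone.

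PER1 separated the zones. With IL-1 it was at 9.97, 9.16 and 8.79 CPM in the inner zone, below all 3 controls, with a log2 fold change of -0.49 ± 0.08 (adjusted p = 4.19e-06). In the outer zone it was at 18.1, 17.5 and 17.1 CPM, above all 3 controls, and rose by 0.31 ± 0.08 (adjusted p = 0.000526), although with upper-quartile scaling the outer rise was 0.13 (adjusted p = 0.121). The test of the difference itself, the inner minus the outer IL-1 effect, gave -0.80 ± 0.11 (adjusted p = 4.96e-06) for PER1. It was the single one of the 9 genes to pass that test, which 9.24% of all tested genes passed. NR1D1 came next at -0.50 ± 0.18 (adjusted p = 0.0694), and without control replicate 2 of the inner zone it passed (-0.58, adjusted p = 0.044). CRY1, at -0.21 ± 0.08 (adjusted p = 0.103), passed without IL-1 replicate 2 of the inner zone (adjusted p = 0.0281) and without the filter on low counts (adjusted p = 0.0429).

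NR1D1 fell to 2.52, 2.23 and 2.42 CPM in inner zone wells with IL-1, 2.75-fold lower than the controls. Its log2 fold change of -1.46 ± 0.13 (adjusted p = 3.85e-12) was the one change of more than 2-fold among all calls of the 9 genes. Outer wells with IL-1 held 4.54, 3.93 and 4.07 CPM, 1.95-fold lower, with a log2 fold change of -0.96 ± 0.11 (adjusted p = 3.12e-09). NR1D2 differed by 0.10 ± 0.09 in the inner zone (adjusted p = 0.313) and rose in the outer zone to 40.1, 43.8 and 47.3 CPM, by 0.26 ± 0.08 (adjusted p = 0.0105). With upper-quartile scaling that outer difference was 0.08 (adjusted p = 0.434), and it was lost without control replicate 5 (adjusted p = 0.0516) or IL-1 replicate 6 (adjusted p = 0.0755). THRA fell with IL-1 as well, with log2 fold changes of -0.56 ± 0.06 (inner) and -0.50 ± 0.06 (outer). The part of this overlap in the NR1D1 values was not tested.

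CLOCK fell to 43.2, 44.6 and 46.4 CPM in the inner zone and 39.3, 43.7 and 41.7 CPM in the outer zone with IL-1. No well overlapped the controls, and the log2 fold changes were -0.52 ± 0.05 (adjusted p = 2.16e-10) and -0.66 ± 0.05 (adjusted p = 7.04e-13). TEF fell in the outer zone to 3.79, 3.51 and 3.29 CPM, a log2 fold change of -0.54 ± 0.16 (adjusted p = 0.00374). In the inner zone TEF differed by -0.31 ± 0.15 (adjusted p = 0.0658), which passed with upper-quartile scaling, in a fit of the compared groups alone, with the replicate block (-0.32, adjusted p = 0.0465) and without IL-1 replicate 3. DBP was at 0.788, 1.13 and 0.547 CPM in inner and 0.909, 1.17 and 0.882 CPM in outer zone wells, and its outer fall of -0.54 ± 0.24 (adjusted p = 0.0466) was lost without any of 5 of the 6 wells compared (control replicates 4, 5 and 6, IL-1 replicates 4 and 6), where adjusted p ran up to 0.142. That fall was also lost with RLE scaling (adjusted p = 0.054), without the filter on low counts (0.0642), with DESeq2 (0.0793) and with the replicate block (0.0506), so that 5 of the 6 outer falls held under all of these. Its inner difference was -0.42 ± 0.26 (adjusted p = 0.163), and it passed without IL-1 replicate 2 (-0.70, adjusted p = 0.0371) and with upper-quartile scaling (-0.59, adjusted p = 0.0425).

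Markers of several cell types moved with IL-1 too. The summed level of 6 leukocyte markers, carried by CD14, was 25.8 to 30.7 CPM with IL-1 against 18.3 to 19.0 CPM in control inner zone wells and 40.3 to 43.4 against 22.3 to 24.3 CPM in the outer zone. The chondrocyte sum, mostly COL11A1 and ACAN, was lower, at 2176 to 2386 against 2747 to 2886 CPM (inner) and 890 to 939 against 1112 to 1199 CPM (outer). That of 6 mural cell markers, carried by ACTA2, was 1422 to 1485 against 1628 to 1828 CPM and 694 to 779 against 1022 to 1054 CPM. The endothelial sum, nearly all PECAM1, was 5.02 to 5.46 against 7.62 to 9.52 CPM and 6.18 to 7.91 against 8.94 to 9.18 CPM. None of these ranges overlapped within a zone, and their part in the clock gene values was not tested.

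When IL-1 was present, stretch raised PER2 and PER3 in both zones. It further raised CRY1 and CRY2 and lowered NR1D1 in the inner zone, and lowered PER1 in the outer zone. The counts were 4 genes that rose and 1 that fell in inner zone cells (16.6% and 18.1% of all tested genes), and 2 that rose and 1 that fell in outer zone cells (13.1% and 15.1%). The median over the 9 genes was 0.24 in both zones, beside 0.01 over all tested genes in each. Without regard to sign, the median was 0.31 beside 0.16 over all tested genes (inner) and 0.31 beside 0.15 (outer). With upper-quartile scaling 4 rose and 0 fell in the inner zone (21.8% and 13.4% of all tested genes), and 3 rose and 1 fell in the outer zone (20.5% and 11.9%).

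PER2, lowered by IL-1 alone, was at 6.26, 6.93 and 6.73 CPM in inner zone wells with both treatments and rose by 0.75 ± 0.14 (adjusted p = 3.63e-05) against IL-1 alone. Outer wells held 4.71, 5.59 and 6.39 CPM, a rise of 0.42 ± 0.14 (adjusted p = 0.0187), a call lost without IL-1 replicate 6 (adjusted p = 0.0943) or stretch + IL-1 replicate 6 (adjusted p = 0.154). PER3 reached 24.2, 24.2 and 23.4 CPM in the inner and 20.2, 22.6 and 23.8 CPM in the outer zone, and rose by 0.31 ± 0.07 (adjusted p = 0.000272) and 0.27 ± 0.07 (adjusted p = 0.00163). For both genes the wells given both treatments lay above all wells given IL-1 alone.

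PER1 was at 8.97, 8.57 and 8.83 CPM with both treatments in the inner zone, which overlapped the wells given IL-1 alone, and differed by -0.08 ± 0.09 (95% interval -0.26 to 0.10). Outer wells held 12.7, 11 and 13.2 CPM, below all 3 wells of IL-1 alone, a log2 fold change of -0.51 ± 0.08 (adjusted p = 3.07e-06). The inner minus outer difference of these effects was 0.43 ± 0.12 (adjusted p = 0.0435), and PER1 was again the one gene of the 9 to pass, where 2.33% of all tested genes did. That call was lost without any of 10 of the 12 wells compared, all but IL-1 replicate 1 of the inner and stretch + IL-1 replicate 6 of the outer zone, with an adjusted p of up to 0.113. It was also lost in a fit of the compared groups alone (0.44, adjusted p = 0.0706).

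CRY2 was highest of all groups in inner zone wells with both treatments, at 13, 12.7 and 13.6 CPM, and rose by 0.59 ± 0.10 (adjusted p = 1.66e-05) against IL-1 alone. Outer wells lay between 10.8 and 11.5 CPM, above the IL-1 wells, but the difference of 0.24 ± 0.10 did not pass (adjusted p = 0.0807); it passed with upper-quartile scaling and in a fit of the compared groups alone. CRY1 was at 52.1, 49.6 and 49.6 CPM in the inner and 57.2, 56.2 and 56.5 CPM in the outer zone. It rose by 0.17 ± 0.05 (adjusted p = 0.0118) in the inner zone, which was lost without IL-1 replicate 1 or 3 or stretch + IL-1 replicate 1 (adjusted p up to 0.0756), and differed by 0.07 ± 0.05 in the outer zone (95% interval -0.04 to 0.18).

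NR1D1 was lowest of all groups in inner zone wells with both treatments, at 2.02, 1.28 and 1.92 CPM. Its log2 fold change against IL-1 alone was -0.45 ± 0.17 (adjusted p = 0.0358), lost without IL-1 replicate 1 or 3 or stretch + IL-1 replicate 2 (-0.29, adjusted p = 0.228), with upper-quartile scaling (adjusted p = 0.0635) and in a fit of the compared groups alone (adjusted p = 0.0679). The outer wells were at 3.24, 3.03 and 3.75 CPM, below the wells of IL-1 alone, with a difference of -0.32 ± 0.13 (adjusted p = 0.0656) that passed without stretch + IL-1 replicate 6 (-0.41, adjusted p = 0.0394). NR1D2 rose by 0.59 ± 0.09 (adjusted p = 4.91e-06) in the inner zone, to 48.6, 54.4 and 53.5 CPM. Its outer difference of 0.22 ± 0.08 (adjusted p = 0.0524) passed under 5 of the 7 other settings (upper-quartile scaling, filterByExpr, DESeq2, compared groups alone and replicate block, adjusted p 0.0157 to 0.0491), and without IL-1 replicate 6 or stretch + IL-1 replicate 4. THRA took the other direction from NR1D1 here and rose by 0.37 ± 0.06 (adjusted p = 3.18e-06) in the inner and 0.32 ± 0.06 (adjusted p = 3.29e-05) in the outer zone. CLOCK, at 42.3, 45 and 48.8 CPM in the inner and 41.1, 42 and 43.1 CPM in the outer zone, overlapped the wells of IL-1 alone, with 95% intervals of -0.09 to 0.14 (inner) and -0.10 to 0.13 (outer), and neither DBP nor TEF passed in either zone. DBP passed in the inner zone without IL-1 replicate 2 (0.79, adjusted p = 0.0424) and TEF in the outer zone without stretch + IL-1 replicate 4 (0.46, adjusted p = 0.0369). Of the marker sums, that of mural cells was 796 to 948 CPM with both treatments against 694 to 779 CPM with IL-1 alone and that of fibroblasts 104581 to 106896 against 109040 to 112010 CPM in the outer zone, and their part was not tested.

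**Figure D4:**
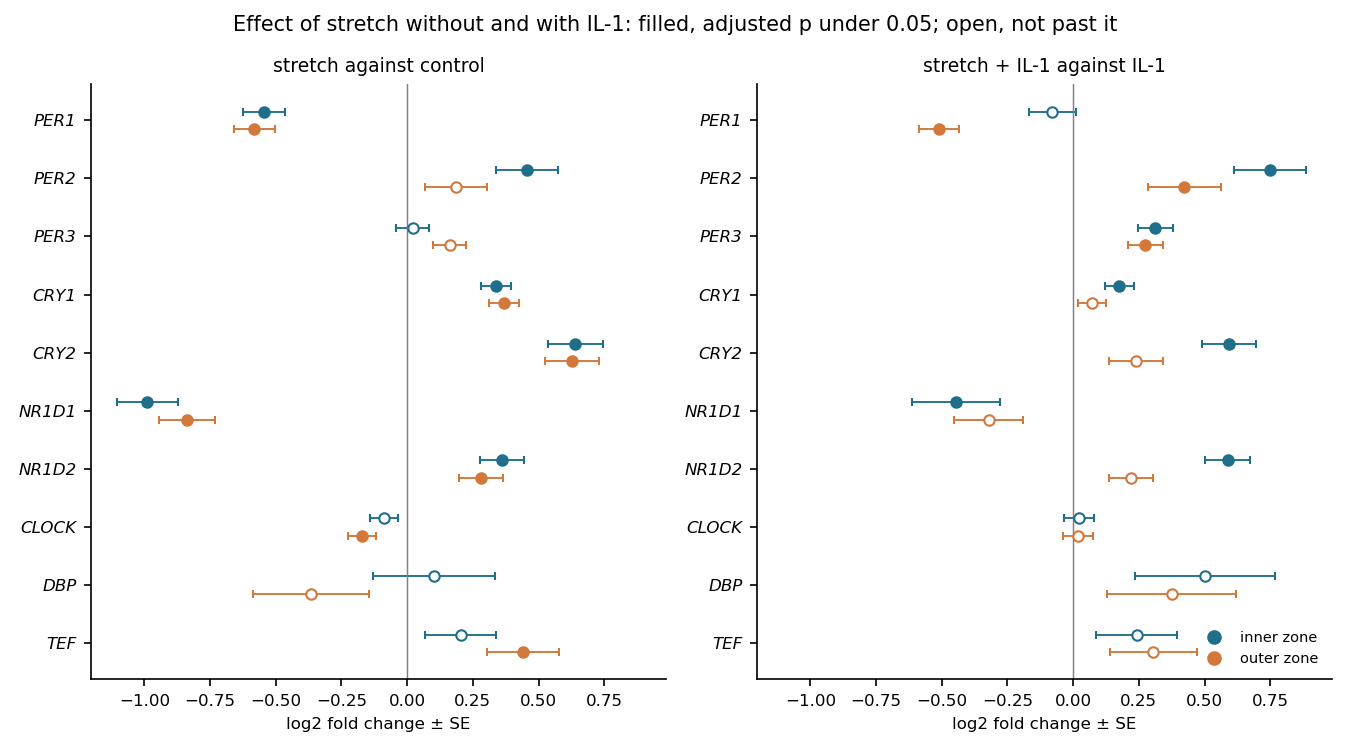
Log2 fold change (horizontal axis, ± SE) of each clock gene with stretch in the absence of IL-1 (left) and in its presence (right), inner and outer zone by colour; filled points passed an adjusted p under 0.05. In inner zone cells PER1 moves from -0.54 to -0.08 and PER3 from 0.02 to 0.31 between the panels, and in outer zone cells CRY1 moves from 0.37 to 0.07.

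Whether the stretch effect itself differed with IL-1 was tested as an interaction, the stretch effect with IL-1 minus that without it. In inner zone cells PER1 and PER3 passed, 2 of 9 genes beside 19.7% of all tested genes. For PER1 the interaction was 0.47 ± 0.12 (adjusted p = 0.00459), with a stretch effect of -0.54 ± 0.08 without and -0.08 ± 0.09 with IL-1. For PER3 it was 0.29 ± 0.09 (adjusted p = 0.0203), lost without control replicate 3, stretch replicate 1 or IL-1 replicate 1 (adjusted p up to 0.0778). In outer zone cells CRY1 and NR1D1 passed, beside 13.2% of all tested genes. The CRY1 interaction was -0.30 ± 0.08 (adjusted p = 0.00696), a smaller rise with stretch in IL-1. That of NR1D1 was 0.52 ± 0.17 (adjusted p = 0.0377), a smaller fall, and it was lost without any of 7 of the 12 wells (control replicates 5 and 6, stretch replicates 4 and 6, IL-1 replicates 5 and 6, stretch + IL-1 replicate 6; adjusted p up to 0.15), without the filter on low counts (adjusted p = 0.0509) and with DESeq2 (adjusted p = 0.0516). The outer CRY2 interaction of -0.39 ± 0.15 (adjusted p = 0.0769) passed without control replicate 5 or stretch replicate 6, and that of CLOCK (0.19 ± 0.08, adjusted p = 0.105) with upper-quartile scaling. The inner NR1D1 interaction was 0.54 ± 0.21 and did not pass (adjusted p = 0.0608), but did without control replicate 2 (0.62, adjusted p = 0.0361) or stretch + IL-1 replicate 2 (0.70, adjusted p = 0.0151), and with upper-quartile scaling (0.58, adjusted p = 0.0425). For NR1D2 the interaction was 0.23 ± 0.12 in the inner and -0.06 ± 0.12 in the outer zone, and neither passed (adjusted p = 0.209 and 0.814).

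The same wells can be read as the effect of IL-1 in stretched cells. In the inner zone 2 genes rose (CRY1 and CRY2) and 2 fell (NR1D1 and CLOCK), against 27.2% and 26.3% of all tested genes. In the outer zone 2 rose (PER1 and CRY1) and 4 fell (PER2, NR1D1, CLOCK and TEF), against 28.5% and 30.9%. With upper-quartile scaling 1 rose and 4 fell in the inner zone (17.6% and 42.4% of all tested genes), and 2 rose and 5 fell in the outer zone (19.4% and 44.9%). CRY1 rose by 0.51 ± 0.05 (inner) and 0.58 ± 0.05 (outer), and CLOCK had log2 fold changes of -0.41 ± 0.05 and -0.47 ± 0.05. Those of NR1D1 were -0.92 ± 0.15 in the inner and -0.44 ± 0.12 in the outer zone. PER1 rose by 0.38 ± 0.08 (adjusted p = 0.000131) in the outer zone and differed by -0.02 ± 0.09 in the inner zone (95% interval -0.20 to 0.16). The outer fall of PER2 (-0.42 ± 0.12) was lost without stretch replicate 5 (-0.24, adjusted p = 0.0839), and the inner rise of CRY2 (0.32 ± 0.10) with upper-quartile scaling (0.19, adjusted p = 0.0974). Among the values that did not pass, inner PER2 (-0.23 ± 0.12) passed with upper-quartile scaling and in a fit of the compared groups alone, outer PER3 (-0.12 ± 0.06) with upper-quartile scaling and without stretch + IL-1 replicate 6, and inner TEF (-0.27 ± 0.14) with upper-quartile scaling and without stretch replicate 1 or stretch + IL-1 replicate 3.

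NR1D2 rose with IL-1 in stretched cells of both zones, by 0.33 ± 0.08 (adjusted p = 0.00155) in the inner and 0.20 ± 0.08 (adjusted p = 0.0442) in the outer zone. Upper-quartile scaling made these 0.19 (adjusted p = 0.0477) and 0.06 (adjusted p = 0.53). The outer call was also lost without the filter on low counts (adjusted p = 0.079) and without any of 4 of the 6 wells, stretch replicates 4 and 5 and stretch + IL-1 replicates 5 and 6 (adjusted p up to 0.227). The leukocyte sum was 24.5 to 27.0 against 19.1 to 20.2 CPM without IL-1 in stretched inner zone wells and 40.1 to 43.2 against 24.1 to 28.7 CPM in the outer zone. The endothelial sum was 4.89 to 5.58 against 7.71 to 8.49 CPM (inner) and 6.66 to 7.85 against 8.85 to 9.60 CPM (outer). That of mural cells was 1472 to 1587 against 1666 to 1804 CPM and 796 to 948 against 992 to 1099 CPM. In the outer zone the chondrocyte sum was 933 to 943 against 946 to 1088 CPM. The part of these sums was not tested.

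Between the zones, NR1D1 stood lower in the inner zone than in the outer under each of the 4 treatments. In control cells it was the one gene of the 9 that differed, by -0.31 ± 0.10 (adjusted p = 0.0143), where 20.7% of all tested genes were higher and 24.3% lower in the inner zone. That call was lost without inner control replicate 2 (-0.23, adjusted p = 0.107) or outer control replicate 6 (-0.28, adjusted p = 0.0532). In stretched cells NR1D1 again differed alone, by -0.46 ± 0.12 (adjusted p = 0.00244), beside 20.4% of all tested genes higher and 23.7% lower, and CRY1 joined it without inner stretch replicate 2 (-0.15, adjusted p = 0.0418). With IL-1, PER1, CRY1 and NR1D1 were lower in inner zone cells, beside 24% higher and 22.9% lower. PER1 differed most, by -0.92 ± 0.08 (adjusted p = 1.79e-11), followed by NR1D1 at -0.80 ± 0.14 (adjusted p = 1.44e-05) and CRY1 at -0.27 ± 0.05 (adjusted p = 8.86e-05). TEF lay in the other direction, higher in inner zone cells by 0.40 ± 0.17 (adjusted p = 0.0503), which did not pass here but did with upper-quartile scaling, filterByExpr, DESeq2 (adjusted p = 0.0462), in a fit of the compared groups alone, with the replicate block (adjusted p = 0.0427) and without inner IL-1 replicate 1 or 2. With both treatments the same 3 genes were lower, with log2 differences of -0.49 ± 0.09 (PER1), -0.93 ± 0.15 (NR1D1) and -0.17 ± 0.05 (CRY1), and CRY2 was higher by 0.24 ± 0.10 (adjusted p = 0.0467), beside 23.8% higher and 24.4% lower. The CRY2 call was lost without any 1 of the 6 wells compared (adjusted p up to 0.19), without the filter on low counts (0.0717) and with DESeq2 (0.0549). Differences of 0.26 ± 0.13 for PER2, 0.11 ± 0.06 for CLOCK and 0.33 ± 0.15 for TEF passed only without single wells (PER2 without outer replicate 6, CLOCK without inner replicate 1, TEF without inner replicate 1 or outer replicate 5).

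NR1D2 was lower in the inner zone with IL-1, at 34.8, 32.3 and 36.9 CPM against 40.1, 43.8 and 47.3 CPM in the outer zone, by -0.33 ± 0.09 (adjusted p = 0.00253). No well overlapped. Its differences were -0.18 ± 0.09 in control cells (adjusted p = 0.0911, and 0.0387 in a fit of the compared groups alone), -0.10 ± 0.08 with stretch (adjusted p = 0.349) and 0.04 ± 0.08 with both treatments (adjusted p = 0.754). The inner minus outer difference of its stretch effect in the presence of IL-1 was 0.37 ± 0.12 (adjusted p = 0.11), which passed with DESeq2 (adjusted p = 0.0436) and in a fit of the compared groups alone (adjusted p = 0.0455). That of its IL-1 effect was -0.15 ± 0.12 (adjusted p = 0.512) and that of its stretch effect 0.08 ± 0.12 (adjusted p = 0.927).

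The stretch effect itself did not differ between the zones for any of the 9 genes by the edgeR quasi-likelihood test, and for none did the unadjusted p fall under 0.05. That test passed for 0.366% of all tested genes, and DESeq2 called none of the 9 either. The 95% interval of the inner minus outer stretch effect was -0.19 to 0.27 for PER1, -0.19 to 0.13 for CRY1, -0.29 to 0.31 for CRY2 and -0.47 to 0.17 for NR1D1. The summed level of 8 chondrocyte markers was 2176 to 2886 CPM in inner and 890 to 1199 CPM in outer zone wells over all treatments, and that of 6 mural cell markers 1422 to 1828 and 694 to 1099 CPM. The leukocyte sum was below that of the outer zone in inner wells under each treatment, and the part of these sums in the zone differences was not tested.

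Other components of the loop were read from a list of 11 core factors, of which 10 were tested. With stretch 3 of the 10 rose and 3 fell in the inner zone, where 10.6% of all tested genes rose and 9.29% fell, while 1 rose and 4 fell in the outer (11% and 10.3%). With IL-1 6 rose and 3 fell in the inner (32.6% and 32.8% of all tested genes) and 6 rose and 2 fell in the outer zone (31.1% and 33.5%). The median log2 fold changes of the list with IL-1 were 0.58 and 0.31, those with stretch -0.02 and 0.01. Other scalings, filters and tests and the leaving out of wells were tried for the 10 clock genes only. How far the calls of this list and those that follow depend on them was not tested.

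BHLHE40 (DEC1), a repressor that competes for E-boxes, had the largest stretch effect of the core factors. It was at 49, 54.8 and 50.8 CPM in control and 22.5, 23.2 and 23.9 CPM in stretched inner zone wells, and at 77.3, 82.5 and 83.9 against 30.2, 30.9 and 27.6 CPM in the outer zone. The log2 fold changes were -1.15 ± 0.08 (adjusted p = 9.31e-11) and -1.46 ± 0.08 (adjusted p = 5.71e-13). IL-1 raised it to 101, 115 and 87 CPM in the inner and 160.2, 161 and 161 CPM in the outer zone, by 0.97 ± 0.07 and 0.98 ± 0.07, and with IL-1 present stretch lowered it too, with log2 fold changes of -1.10 ± 0.07 and -1.39 ± 0.07. Its relative BHLHE41 (DEC2) fell with stretch, at -0.28 ± 0.09 and -0.50 ± 0.09 on the log2 scale, and rose with IL-1 from 21, 22.3 and 22.8 CPM to 146, 148 and 146 CPM in the inner zone, by 2.74 ± 0.08 (adjusted p = 1.45e-18). The outer rise of BHLHE41 with IL-1 was 1.05 ± 0.08 (adjusted p = 7.80e-11), and the inner minus outer difference was 1.69 ± 0.12 (adjusted p = 1.62e-09).

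On the activating side, ARNTL, whose protein is the partner of CLOCK, was at 12.9, 13.2 and 12.7 CPM in control, 15.8, 15.5 and 15.2 CPM in stretched and 19.9, 20.3 and 16 CPM in IL-1 wells of the inner zone. It rose with stretch by 0.26 ± 0.09 (adjusted p = 0.0446) and with IL-1 by 0.53 ± 0.09 (adjusted p = 9.82e-06). With both treatments it was lower than with IL-1 alone, a log2 fold change of -0.43 ± 0.09 (adjusted p = 0.000513), and the interaction was -0.69 ± 0.13 (adjusted p = 0.00022). Outer ARNTL levels differed by -0.01 ± 0.09 with stretch and 0.19 ± 0.09 with IL-1, neither of which passed (adjusted p = 0.972 and 0.0593). ARNTL2, another partner, rose with IL-1 in both zones, by 0.68 ± 0.06 and 0.27 ± 0.06. NPAS2, which can stand in for CLOCK, fell with IL-1, with log2 fold changes of -0.51 ± 0.05 and -0.73 ± 0.06, and rose with stretch in both zones, by 0.21 ± 0.05 and 0.21 ± 0.05.

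RORA, the activator that shares its elements with NR1D1, fell with stretch, with log2 fold changes of -0.31 ± 0.06 (inner) and -0.47 ± 0.06 (outer), and rose with IL-1 in the outer zone by 0.35 ± 0.06. RORB was scarce in the inner zone (0.246 to 0.325 CPM in control wells, against 1.74 to 2.16 CPM in the outer zone) and rose with IL-1 by 1.07 ± 0.37 and 1.40 ± 0.16. NFIL3, the D-box repressor that opposes DBP and TEF, rose with IL-1 by 0.64 ± 0.06 (inner) and 1.24 ± 0.06 (outer), and had a log2 fold change of -0.29 ± 0.06 with stretch in the outer zone, also a call. HLF, the third PAR bZIP factor, had a log2 fold change of -0.65 ± 0.28 with IL-1 (adjusted p = 0.0393) in the inner zone and differed by -0.52 ± 0.28 in the outer zone (adjusted p = 0.11). CIART, a repressor of CLOCK and its partner, fell with IL-1, with log2 fold changes of -0.85 ± 0.19 and -0.83 ± 0.18. Both HLF and CIART were scarce, with at most 64 and 109 reads in any library.

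**Figure D5:**
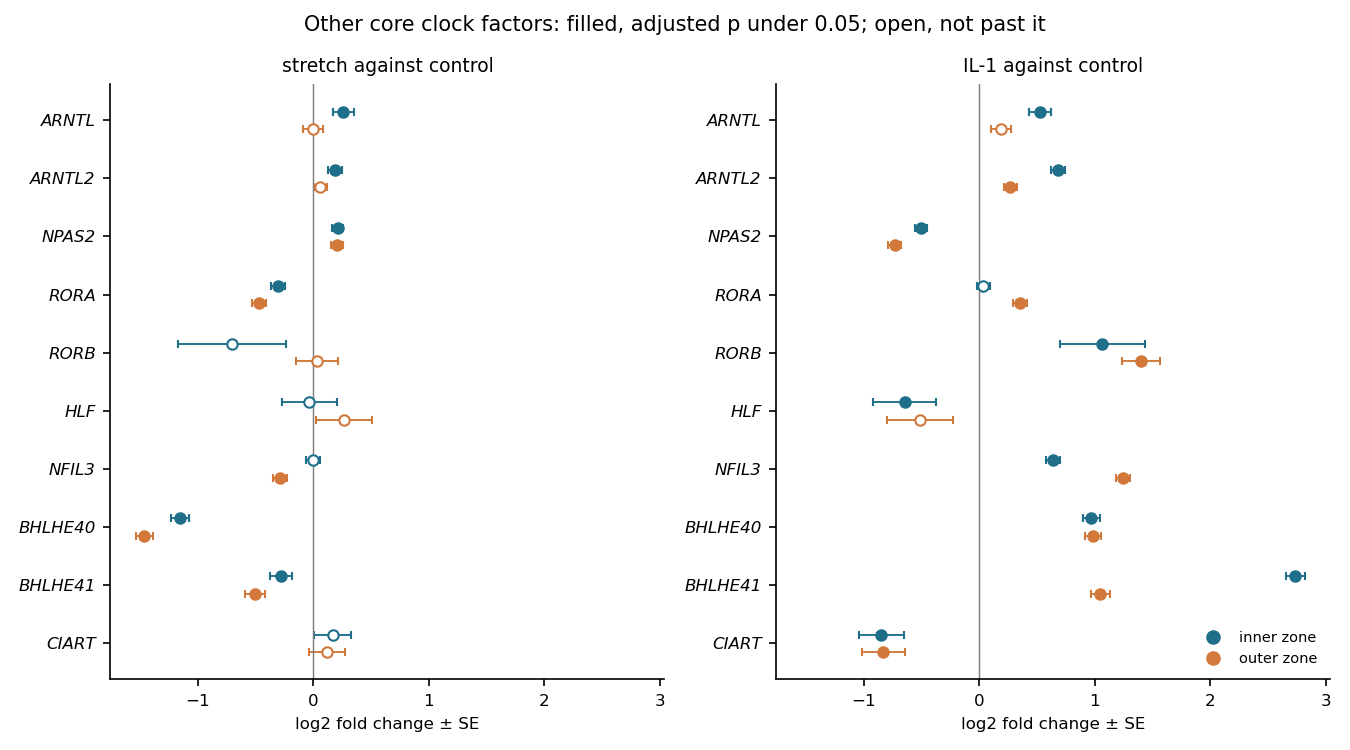
Log2 fold change (horizontal axis, ± SE) of 10 other core clock factors with stretch (left) and with IL-1 (right) against control wells, inner and outer zone by colour; filled points passed an adjusted p under 0.05. BHLHE40 lies at -1.15 and -1.46 with stretch and at 0.97 and 0.98 with IL-1, and BHLHE41 reaches 2.74 with IL-1 in inner zone cells. The panels share their control wells.

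Of 18 listed genes whose proteins modify clock proteins, 16 were tested. With IL-1 12 rose and 3 fell in the inner (32.6% and 32.8% of all tested genes) and 10 rose and 3 fell in the outer zone (31.1% and 33.5%). With stretch 2 rose and 1 fell in the inner (10.6% and 9.29% of all tested genes) and 4 rose and 2 fell in the outer zone (11% and 10.3%). The list medians were 0.23 and 0.22 with IL-1 and -0.01 and 0.03 with stretch. Upper-quartile scaling moved the median of all tested genes with IL-1 from -0.03 to -0.20 (inner) and from -0.04 to -0.22 (outer). Its effect on this list was not tested. Casein kinase CSNK1E, which phosphorylates PER proteins, rose with stretch by 0.64 ± 0.06 (inner) and 0.41 ± 0.05 (outer), as did CSNK1D by 0.27 ± 0.04 and 0.29 ± 0.04. TIMELESS had a log2 fold change of -0.29 ± 0.08 with stretch in the inner zone, also a call. With IL-1 the deacetylase gene SIRT1 rose by 1.13 ± 0.07 and 1.08 ± 0.07, while TIMELESS fell, with log2 fold changes of -1.17 ± 0.09 and -1.28 ± 0.11, as did the deubiquitinase gene USP2, with -1.55 ± 0.15 and -0.90 ± 0.17. TIMELESS also serves DNA replication.

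Of 12 genes known as clock outputs in other tissues, 11 were tested. With stretch 3 rose and 3 fell in the inner (10.6% and 9.29% of all tested genes) and 1 rose and 3 fell in the outer zone (11% and 10.3%). With IL-1 3 rose and 3 fell in the inner (32.6% and 32.8% of all tested genes) and 4 rose and 4 fell in the outer zone (31.1% and 33.5%). KLF10 fell with stretch, with log2 fold changes of -1.58 ± 0.09 and -1.28 ± 0.09, and KLF15 with -2.36 ± 0.46 and -2.72 ± 0.29. KLF15 was scarce, with at most 185 reads in any library. KLF9 had a log2 fold change of -1.23 ± 0.07 with stretch in the outer zone, also a call. The list medians were 0.06 and -0.07 with stretch and 0.01 and -0.09 with IL-1. With IL-1 NAMPT, the enzyme of NAD salvage, rose by 2.64 ± 0.08 and 2.56 ± 0.08, and NOCT, the gene of a rhythmic phosphatase, by 1.91 ± 0.11 and 2.02 ± 0.11. KLF9 rose with IL-1 in the inner zone by 1.51 ± 0.07 and KLF15 in the outer zone by 1.17 ± 0.19. Many of these genes also answer to other signals, so they do not report on the clock alone.

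For each clock gene with a mean of at least 5 CPM, the 3 genes whose log2 CPM followed it most closely over the 24 libraries, by Pearson r, were found among 9184 genes of that level. CRY1 was most like MAP2K3 (r = 0.980), NDRG1 (0.978) and FILIP1L (0.977), and CLOCK was most like RDX (0.970), GADD45A (0.968) and SLC25A46 (0.965). For PER1 they were GALNT5 (0.919), SEC23IP (0.892) and SIN3A (0.891), for PER2 GSE1 (0.933), UBTF (0.930) and ZNF469 (0.929), and for PER3 CROCC (0.895), OSBPL5 (0.892) and BCAR1 (0.891). CRY2 had THRAP3 (0.902), ZMIZ1 (0.897) and YTHDF1 (0.891), NR1D2 had MATR3 (0.918), KIF1B (0.907) and YTHDC1 (0.894), and TEF had ST5 (0.888), NPRL3 (0.884) and H1FX (0.880). The 24 libraries fall into 8 groups that share cells and treatments, so these values are a description only.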

How the data were processed

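RNA-seq was done on the 24 wells described above. Per the study's methods and labels, reads of a stranded mRNA kit were trimmed, mapped with STAR to Sscrofa11.1, kept where they mapped to 1 place, and counted per gene with HTSeq; the authors deposited these raw counts, which are the values used here. Tool versions and the strand setting of the counting are not given in the sources used here. A table that the authors normalized with DESeq2 was not used. Genes with 10 or more reads in any library were tested on all 24 libraries in 1 model of 8 groups with edgeR 4.0.16 (TMM scaling, quasi-likelihood test, R 4.3.3), and p-values were adjusted over all 13653 genes by the Benjamini-Hochberg method within each of 17 comparisons. The study's own test was DESeq2, which served as an alternative (version 1.42.0). Depth limits precision most for DBP, the scarcest of the genes. Named were every clock gene of the rule, every tested core factor, the 3 largest calls of the other lists and the 3 most alike genes; a few genes that this rule names are not reported here. The members and lists were chosen with earlier results of these data known. Alternatives were other scalings (RLE, upper quartile), no filter or filterByExpr, DESeq2, a fit of the compared groups alone, a replicate block, and leaving out each library. They were run for the 10 clock genes and not for the genes of the other lists. Replicates of a group differed by more than sampling noise (chi-square per degree of freedom 2.43 to 11.4). Repeat libraries of the same RNA could also exceed that noise, so these values cannot show that the wells were separate. Each library was counted as a separate well because the labels number them separately within a group. The wells of a group still shared pooled cells and a plate-like number.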

Additional observations from a re-analysis of the deposited data

Results flagged for a closer look

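In these results the effect of a treatment differed between conditions or zones by a test of the difference itself (edgeR quasi-likelihood test, 3 wells a group, adjusted over all genes). Of all tested genes 19.7% passed the interaction of stretch and IL-1 in the inner and 13.2% in the outer zone. The zone difference passed for 9.24% with the IL-1 effect and for 2.33% with the stretch effect in the presence of IL-1. Of the 9 clock genes 2 passed each interaction and 1 each of these zone differences. The stretch effect of PER1 in inner zone cells was 0.47 ± 0.12 higher on the log2 scale with IL-1 than without it (adjusted p = 0.00459). The inner minus outer difference of the IL-1 effect on PER1 was -0.80 ± 0.11 (adjusted p = 4.96e-06), and all 3 inner wells with IL-1 lay below their controls while all 3 outer wells lay above theirs. How many of all tested genes had wells apart in this way was not computed. With upper-quartile scaling the outer rise of PER1 was 0.13 and did not pass (adjusted p = 0.121). The inner minus outer difference of the stretch effect on PER1 in the presence of IL-1 was 0.43 ± 0.12 (adjusted p = 0.0435). For PER3 the inner interaction of stretch and IL-1 was 0.29 ± 0.09 (adjusted p = 0.0203). In outer zone cells that interaction was -0.30 ± 0.08 for CRY1 (adjusted p = 0.00696) and 0.52 ± 0.17 for NR1D1 (adjusted p = 0.0377). Those of PER1 in the presence of IL-1, of PER3 and of NR1D1 were lost when single wells were left out, as given above. That of PER1 was also lost in a fit of the compared groups alone (adjusted p = 0.0706) and with the replicate block (adjusted p = 0.057). That of NR1D1 was also lost without the filter on low counts (adjusted p = 0.0509) and with DESeq2 (adjusted p = 0.0516).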

How the results depend on the processing

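No log2 fold change of the 10 genes that passed the test changed its sign under any alternative. Outside leaving out wells, 1145 values stayed on their side of the threshold, 26 came to pass and 19 no longer passed. The outer interaction of stretch and IL-1 had 1 of the 9 genes past the test, in place of 2, without the filter and with DESeq2. The zone difference of the IL-1 effect had 2 in place of 1 without the filter. That of the stretch effect in the presence of IL-1 had 0 in place of 1 in a fit of the compared groups alone and with the replicate block. Leaving out single wells gave 1 to 3 genes for the inner and 1 to 2 for the outer interaction. It gave 3 to 6 for stretch in the presence of IL-1 in the inner zone and 2 to 4 in the outer zone, 4 to 6 for stretch in the outer zone, and 0 to 1 between zones in control and 1 to 2 in stretched cells. For the zone differences it gave 1 to 2 (IL-1) and 0 to 1 (stretch with IL-1). Wells of the same number showed no shared variation within a zone (correlations of their deviations -0.082 to 0.070 over 36 pairs). For wells of different numbers the correlations were -0.118 to 0.088 over 72 pairs. Noise in genes with few reads draws such correlations to 0, so a weak pairing of wells could be missed. With the replicate block 2 calls were lost, DBP with IL-1 in the outer zone (adjusted p = 0.0506) and the zone difference of PER1 above (adjusted p = 0.057), and 3 were gained, TEF with IL-1 in the inner zone (adjusted p = 0.0465), TEF between zones with IL-1 (adjusted p = 0.0427) and NR1D2 with stretch during IL-1 in the outer zone (adjusted p = 0.0427). With 17 to 48 reads of DBP in a library its printed intervals were wide, and a change of any size within them remains possible. Both depth and the spread between wells enter these intervals, and no limit of detection was computed.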
